A study of Mus musculus with 3 samples.

Results

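In 2 HIF1A ChIP-seq peak lists from hypoxic mouse melanocytes, 24 windows of 1 Mb on 11 autosomes held at least 8 called peaks in 1 list or the other. These windows, taken with all their peaks, are described here. They comprised 584 of the 5735 peaks in both lists together: 273 of the 3055 peaks of replicate 1 (8.94%) and 311 of the 2680 of replicate 2 (11.6%). A peak belonged to the window of its start position, counted in whole Mb of the mouse build mm9. Sex chromosomes were not considered, and crowded stretches of chromosome 4 (3 Mb), chromosome 13 (21 to 24 Mb) and chromosome 3 (96 to 97 Mb) were left out. Because the peak calls chose the windows, every value below is a description of these lists and carries no test.

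The cells were melan-Ink4a-Arf-null, an immortalized melanocyte line from Cdkn2a tm1RDp/tm1RDp mice, which lack functional products of the Ink4a-Arf locus. They were grown with 10% serum, 200 nM of the phorbol ester 12-O-tetradecanoylphorbol 13-acetate and 200 pM cholera toxin, and kept in 1% oxygen for 24 hours before crosslinking. Both ChIP libraries were made with 10 µg of an anti-HIF1A antibody from these cells, and 1 input library came from the same line. No normoxic sample was analysed here. Whether each ChIP replicate had its own culture is not in the labels, and what separates them may thus be technical. Total tags were 94716495 for replicate 1 and 103139204 for replicate 2.

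HIF1A is the subunit of hypoxia-inducible factor 1 whose level is set by oxygen. In well-oxygenated cells it is hydroxylated on prolines, bound by the VHL ubiquitin ligase and degraded, and in low oxygen it persists, pairs with ARNT and binds a short core motif near genes of glucose metabolism, angiogenesis and survival. Peak callers of the kind used here compare the ChIP tags of a region with a local background, and the fold enrichment of a peak is the ratio of those values. A peak can therefore have many tags and a low fold where the background is also high. The tables at hand describe another genome build, so peaks were not assigned to genes and no peak sequence is printed.

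The windows are named by chromosome, with a letter where a chromosome had more than 1. Chromosome 1 had 1a (85 to 86 Mb) and 1b (87 to 88 Mb), and chromosome 3 had 3a (25 to 26 Mb) and 3b (92 to 93 Mb). On chromosome 5 they were 5a (14 to 15 Mb), 5b (15 to 16 Mb) and 5c (125 to 126 Mb), and on chromosome 8 they were 8a (19 to 20 Mb), 8b (71 to 72 Mb), 8c (72 to 73 Mb) and 8d (73 to 74 Mb). Chromosome 11 had 11a (68 to 69 Mb), 11b (87 to 88 Mb), 11c (101 to 102 Mb) and 11d (120 to 121 Mb). Chromosome 17 had 17a (23 to 24 Mb), 17b (29 to 30 Mb) and 17c (56 to 57 Mb), and chromosome 19 had 19a (5 to 6 Mb) and 19b (12 to 13 Mb). The single windows were 2 (3 to 4 Mb), 12 (55 to 56 Mb), 14 (51 to 52 Mb) and 16 (3 to 4 Mb).

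A window held 2 to 22 replicate 1 peaks and 3 to 35 replicate 2 peaks. Of the 24 windows, 13 reached 8 peaks in both lists, 8 in replicate 1 alone and 3 in replicate 2 alone. Replicate 1 had more peaks in 10 windows, replicate 2 in 12, and 2 had equal counts. These groups of windows, read from the counts themselves, also differed in the strength and shape of their peaks, and the account below follows them.

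**Figure D1:**
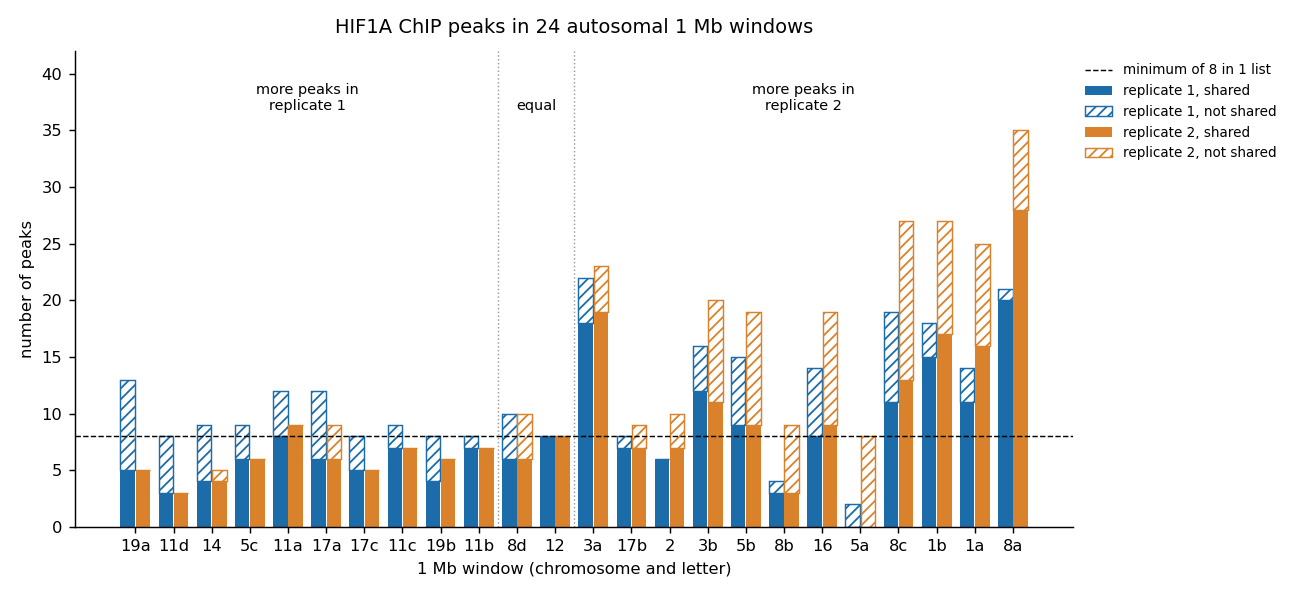
Number of HIF1A ChIP peaks (vertical axis) in each of the 24 windows (horizontal axis, grouped by the list with more peaks). Solid bars are peaks that overlapped a peak of the other list and hatched bars are the rest. Replicate 2 reached 35 peaks in window 8a, and in window 5a no peak of either list was shared.

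Shared peaks were those with at least 1 bp in common with any peak from the other replicate. Of replicate 1's peaks in the windows, 189 of 273 were shared (69.2%, 95% exact binomial interval 63.4 to 74.7%), beside 58.1% of its whole list. Of replicate 2's, 211 of 311 were shared (67.8%, 62.3 to 73.0%), beside 72.2% of its whole list. Autosomal peaks outside all windows with at least 8 peaks gave 777 of 1789 (43.4%, 41.1 to 45.8%) in replicate 1 and 790 of 1009 (78.3%, 75.6 to 80.8%) in replicate 2. The windows thus had the higher share in replicate 1 and the lower share in replicate 2. With peaks widened by 500 bp on each side, the replicate 2 shares were 80.1% in the windows and 80.0% outside. Stricter rules kept the gap in replicate 2. With an overlap of at least 50% of both peaks, they were 48.2% in the windows and 70.9% outside. With summits within 100 bp, they were 38.3% and 66.1%. In replicate 1 the stricter rules narrowed the gap. Its shares in the windows and outside were 54.9% and 40.0% with the 50% overlap, and 44.0% and 37.2% with summits within 100 bp. With widened peaks they were 78.8% and 44.7%. The intervals cover counting error only, and neighbouring peaks of a window are not independent.

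The list with more peaks in a window tended to hold the unshared ones, which the counts alone partly fix. In the 10 windows with more peaks in replicate 1, 58 of its partner's 62 peaks were shared (93.5%) and 55 of its own 96 (57.3%). In 8 of these 10 windows all of replicate 2's peaks were shared. In the 12 windows with more peaks in replicate 2, 139 of its 231 peaks were shared (60.2%) and 120 of replicate 1's 159 (75.5%). None of these 12 had every replicate 2 peak shared. Unshared peaks of replicate 2 in the windows lay close to a peak of replicate 1, at a median of 1854 bp, whereas unshared autosomal peaks outside lay 444716 bp away. For unshared peaks of replicate 1 these medians were 3496.5 and 585579 bp. Windows were chosen for packed peaks and the outside peaks for lying beyond them. This contrast in distance is therefore largely set by the rule.

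The grouping rests on peak calls, which depend on the same tags as fold, tags and false discovery rate, so it partly fixes the differences between groups given here and below. The middle fold of these groups of windows lay further apart in replicate 1 than in replicate 2. In replicate 1 the window medians ran from 4.3 to 9.05 (middle 6.98) in the 10 windows with more of its peaks and from 3.37 to 5.45 (middle 4.22) in the 12 with more of replicate 2's. In replicate 2 the same windows gave 3.2 to 7.64 (middle 4.94) and 3.45 to 6.49 (middle 4.695). Taking all peaks of the windows, fold had a median of 4.68 for replicate 1 and 4.46 for replicate 2, beside 4.85 and 4.92 for autosomal peaks outside. The pooled medians weigh windows by their number of peaks. With each window weighted equally they were 5.145 and 4.89, above the outside value in replicate 1, and 14 and 11 of the 24 window medians exceeded it in replicates 1 and 2. Of the window peaks, 3 of 273 in replicate 1 and 3 of 311 in replicate 2 ranked among the best 100 of their lists by fold. Over the whole lists, ties included, these were 104 of 3055 and 102 of 2680.

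**Figure D2:**
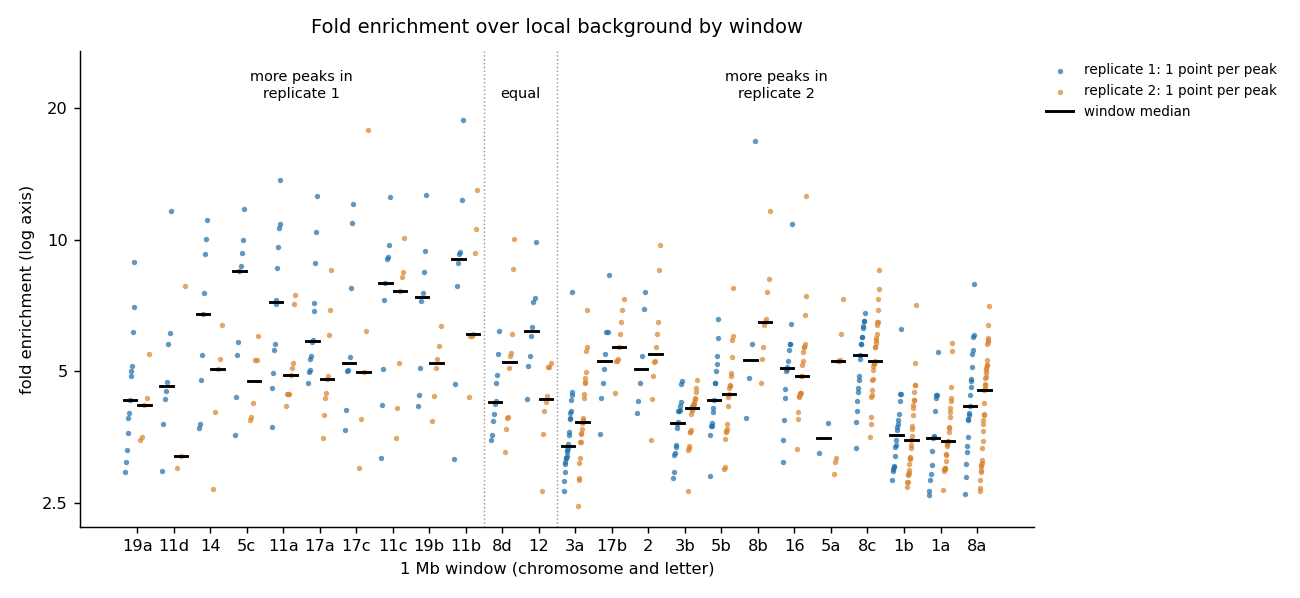
Fold enrichment over local background (vertical log axis) of every peak in the 24 windows (horizontal axis), 1 point per peak, with black bars at the window medians. In replicate 1 the medians of the 10 windows on the left lie between 4.3 and 9.05 and those of the 12 on the right between 3.37 and 5.45.

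Tags per kilobase of peak followed the same division. In replicate 1 the window medians were 166 to 267 (middle 239) in the 10 windows with more of its peaks and 121 to 168 (middle 138) in the 12 with more of replicate 2's. In replicate 2 they were 170 to 320 (middle 233) and 149 to 214 (middle 157). Autosomal peaks outside had medians of 181 and 202 tags per kb in replicates 1 and 2, which lay between the middle values of the groups in each list.

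The caller's own false discovery rate, given in percent for each peak, stood at 100% for 54.3% of all replicate 1 peaks and 54.7% of all replicate 2 peaks. In the windows it did so for 137 of 273 (50.2%) and 171 of 311 (55.0%). In the 10 windows with more replicate 1 peaks these counts were 26 of 96 (27.1%) and 21 of 62 (33.9%). In the 12 windows with more replicate 2 peaks they were 104 of 159 (65.4%) and 142 of 231 (61.5%). The lowest rate of any window peak was 10.53% in replicate 1 (window 11a) and 58.72% in replicate 2 (window 8a). A rate under 100% was thus still high for every window peak of replicate 2. The p-based score, 10 times the -log10 p-value of the caller, reached 800 or more in 18 window peaks of replicate 1 (6.59%), beside 4.29% of its list, and in 7 of replicate 2 (2.25%), beside 2.39% of its list. Of these, 15 and 5 lay in the former 10 windows. Among autosomal peaks outside, 97 of 1789 in replicate 1 and 43 of 1009 in replicate 2 reached that score.

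Paired peaks, meaning mutual best overlaps, numbered 183 in the windows. Replicate 1 had the higher fold in 108 of them (59.0%), beside 57.8% of all 1742 pairs of the lists. The share was 49 of 55 (89.1%) in windows with more replicate 1 peaks and 51 of 114 (44.7%) in those with more replicate 2 peaks. As the windows were grouped by which list had more calls, this contrast is partly set by the grouping. Among autosomal pairs outside it was 634 of 775 (81.8%), between these values. Fold levels of the lists are set side by side here as the caller gave them, and the libraries differed in depth. They also differed in the fragment size estimated by the caller (68 and 53 bp). Both estimates lay below the gel-selected range of 200 to 500 bp given in the labels. Across the 183 pairs, which share libraries and control, Spearman's rho of fold was 0.67 and Pearson's r 0.61. Across the 775 autosomal pairs outside they were 0.68 and 0.70.

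**Figure D3:**
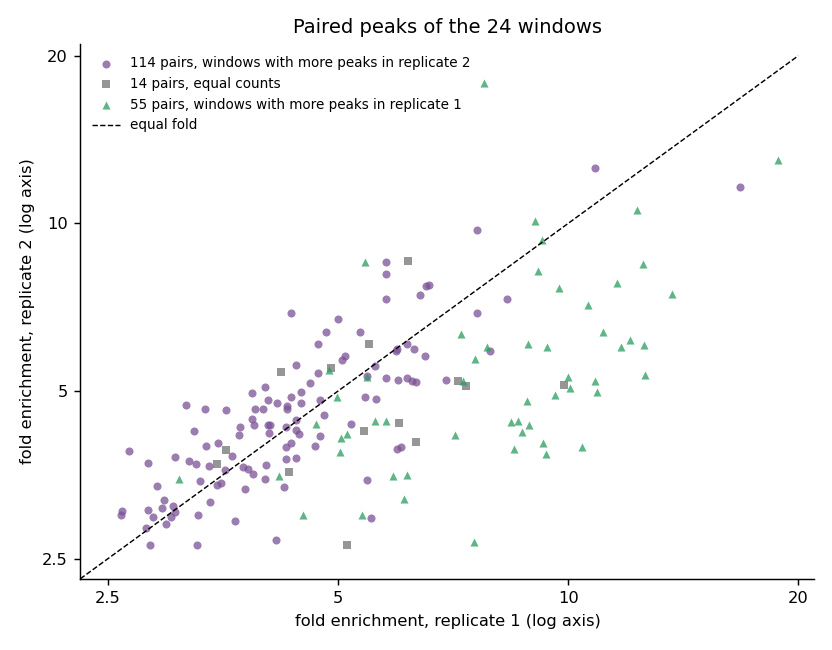
Fold enrichment of the 183 paired peaks in replicate 1 (horizontal log axis) and replicate 2 (vertical log axis), marked by the list with more peaks in their window. Of the 55 pairs drawn as triangles, 49 lie below the line of equal fold, and of the 114 drawn as circles, 51 do.

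Summits of paired peaks coincided less closely in the windows. The median distance was 66 bp (quartiles 20 and 175), against 27 bp (10 and 68) for autosomal pairs outside. Within 50 bp were 81 of 183 pairs (44.3%), beside 63.9% of all pairs and 68.1% of the autosomal pairs outside. The share was 34 of 55 (61.8%) in windows with more replicate 1 peaks and 41 of 114 (36.0%) in those with more replicate 2 peaks. Median peak lengths in the windows and outside were 687 and 603 bp for replicate 1 and 480 and 468 bp for replicate 2. Window medians exceeded the outside value in 13 of 24 windows for replicate 1 and in 11 of 24 for replicate 2, so the lengths of the windows did not lie to 1 side of it. The part of length in the summit distance was not tested.

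The highest fold of replicate 1 within the windows, 18.8, stood at the head of a run of sites in window 11b. From 87236144 to 87285345, 6 peaks of replicate 1 had fold values of 18.8, 12.29, 9.25, 8.85, 9.37 and 7.82 in order of position. Their 6 partners in replicate 2 had 12.98, 10.55, 9.34, 6.07, 6.01 and 6.0. Fold therefore declined from the first site to the fourth in both lists, and only the third site was higher in replicate 2. Tags varied less along the run, from 191 to 282 for replicate 1 and 134 to 243 for its partner. A further shared site stood alone at 87666418 to 87667046, with 4.68-fold and 137 tags in replicate 1 and 4.36-fold and 144 tags in replicate 2. The 1 unshared peak of the window, at 87172350 in replicate 1, had 81 tags and lay 63234 bp from any peak of replicate 2.

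Window 11c had a similar make-up, with 9 peaks of replicate 1 and 7 of replicate 2, all 7 of them shared. Its core was 4 sites between 101488499 and 101520424. Replicate 1 gave them 9.74, 9.12, 9.05 and 12.51-fold with 339 to 362 tags, and replicate 2 gave them 7.64, 8.22, 10.11 and 8.44-fold with 265 to 309 tags. The site of highest fold differed, being the last in replicate 1 and the third in replicate 2. Flanking sites at 101286110, 101466042 and 101845335 were weaker, with 5.05, 7.28 and 4.19-fold in replicate 1 and 4.12, 5.22 and 3.52-fold in replicate 2.

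Window 11a spread over 273 kb in replicate 1, with 12 peaks, and over 88.6 kb in replicate 2, with 9 peaks that were all shared. Its leading site, at 68854255 to 68855638, was 1 peak of 13.68-fold and 435 tags in replicate 1. In replicate 2 it was split into a peak of 7.48-fold and 185 tags and one of 5.08-fold and 73 tags, and the summits of the best pair were 749 bp apart. The replicate 1 peak had a false discovery rate of 10.53%, the lowest of any peak in the 24 windows. Sites at 68850264 and 68875578 followed, with 10.63 and 10.84-fold in replicate 1 and 7.13 and 5.21-fold in replicate 2. Among the 4 peaks found in replicate 1 alone, the one at 68923768 to 68924736 had 168 tags and 7.27-fold.

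Window 19b contained a compact group from 12076515 to 12088069, with 6 peaks of replicate 1 and 5 of replicate 2 in 11.6 kb. The site at 12085339 to 12087076 was a single peak of 12.62-fold and 484 tags in replicate 1 and 3 peaks of 3.85, 5.08 and 5.34-fold in replicate 2. It is 1 of 4 replicate 1 peaks of the windows that overlapped 3 peaks of the other list. The neighbouring sites at 12080295 and 12083891 had 8.41 and 7.55-fold in replicate 1 and 4.39 and 5.7-fold in replicate 2. The first peak of the group, at 12076515 with 9.4-fold and 87 tags, was called in replicate 1 alone.

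In window 5c the peaks gathered between 125869811 and 125890125, a run of 20.3 kb with 6 peaks of replicate 1 and 5 of replicate 2. The 5 paired sites had folds of 11.73, 9.98, 8.69, 8.49 and 9.34 in replicate 1. Their partners had 6.0, 5.29, 4.22, 3.93 and 3.86. The leading site, at 125869811 to 125870921, had 410 and 286 tags in replicates 1 and 2 and summits 22 bp apart. The sixth pair of the window stood far off, at 125048462, with 5.45 and 5.29-fold. All 6 pairs of this window had the higher fold in replicate 1.

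Windows 14 and 17a each had a strong group beside scattered weaker peaks. In window 14, sites at 51683288, 51684280, 51708070 and 51708916 had 11.11, 7.54, 9.27 and 10.05-fold in replicate 1 and 6.39, 2.68, 4.03 and 5.06-fold in replicate 2. Of the 9 replicate 1 peaks there, 5 were unshared, and 2 of those carried 211 and 202 tags (at 51544255 and 51550302). In window 17a, sites at 23683931, 23685459 and 23686927 had 8.83, 12.57 and 10.42-fold in replicate 1 and 4.79, 6.05 and 3.97-fold in replicate 2. The summits of the middle one were 1 bp apart. A narrow peak of the same run, at 23653421, went the other way, with 28 tags and 5.42-fold in replicate 1 and 51 tags and 8.52-fold in replicate 2.

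Windows 17c, 19a and 11d, like 5c, 11b, 11c, 14 and 19b above, reached the threshold through replicate 1 alone. In window 17c the neighbouring sites at 56279580 and 56280601 had 12.04 and 10.92-fold in replicate 1 and 6.18 and 4.97-fold in replicate 2. The narrow peak at 56339348 to 56339603 in replicate 2 had the highest fold of that list within the windows, 17.86 with 89 tags, and its partner had 7.76-fold with 57 tags. In window 19a, 13 peaks of replicate 1 and 5 of replicate 2 spread over 809 and 709 kb, and the best pair, at 5770815 to 5771696, had 8.9-fold and 333 tags against 4.34-fold and 191 tags.

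Window 11d, at 8 and 3, was with 19a, at 13 and 5, the least even of those with more peaks in replicate 1. A group of 4 replicate 1 peaks from 120091831 to 120099631, with 2.96 to 5.78-fold and 135 to 359 tags, had no counterpart in replicate 2. Neither had the 3727 bp peak at 120046625, with 626 tags and 4.32-fold. The nearest replicate 2 peaks to these 5 were 395159 to 444439 bp away. The site at 120811599 to 120812770 had the highest fold of the window in both lists. It had 11.6-fold and 435 tags in replicate 1 and 7.81-fold and 340 tags in replicate 2. Its summits were 2 bp apart, and its false discovery rates were 21.78% and 71.23%.

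The windows with equal counts were 12 and 8d. Window 12 was the only one of the 24 in which every peak of both lists was shared, with 8 peaks in each. Along 55797565 to 55839786, 7 sites had 4.31 to 9.88-fold in replicate 1 and 2.65 to 5.21-fold in replicate 2, and all 8 pairs of the window had the higher fold in replicate 1. Median gaps between its peaks were 3648 and 3856 bp. Window 8d had 10 peaks per list, of which 6 were shared, and all 6 pairs had the higher fold in replicate 2. The best pair there, at 73692258 to 73693045, had 6.18-fold and 120 tags in replicate 1 and 8.55-fold and 119 tags in replicate 2.

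Among the windows with more peaks in replicate 2, 3 stood out for peak length: 1a, 1b and 8a. Peaks of at least 2000 bp made up 1.96% of replicate 1's list and 1.57% of replicate 2's. In the 24 windows there were 25 in each list (9.16% of 273 and 8.04% of 311), and 21 and 24 of them lay in these 3 windows. They amounted to 25 of the 60 long peaks of replicate 1 and 25 of the 42 of replicate 2. Their median fold was 3.86 (range 2.61 to 7.91) in replicate 1 and 3.18 (2.67 to 5.89) in replicate 2. Shorter peaks of the 24 windows had 4.715 and 4.58. All peaks of windows 1a, 1b and 8a, long and short, had medians of 3.78 and 3.71. In replicate 1 the long peaks were thus not lower in fold than the peaks of these 3 windows. With 53 and 87 peaks, the 3 windows held 6.57% and 8.92% of all tags in peaks of replicates 1 and 2.

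**Figure D4:**
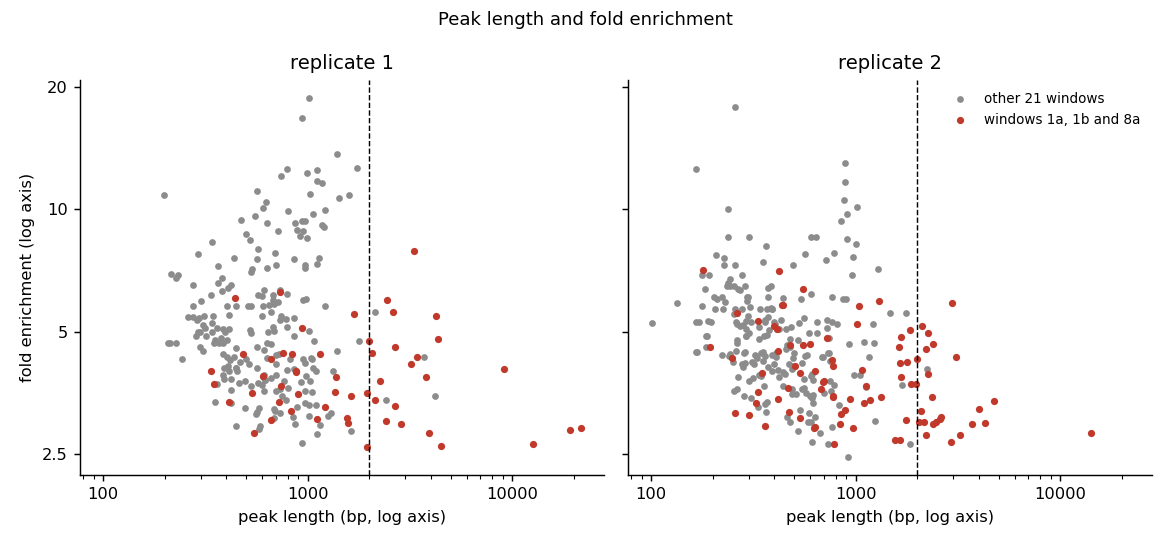
Length (horizontal log axis, bp) and fold enrichment (vertical log axis) of the 273 peaks of replicate 1 and the 311 of replicate 2 in the windows. Red points are windows 1a, 1b and 8a, which held 21 and 24 of the 25 peaks in each list at or beyond the dashed line at 2000 bp.

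Window 1a had 14 peaks of replicate 1 and 25 of replicate 2. Its largest, at 85241324 to 85262967, was 21644 bp long with 5728 tags and 2.9-fold in replicate 1, second in that list by both tags and length. Replicate 2 had 3 peaks in the same stretch, of 4030, 4312 and 4775 bp with 1267, 1514 and 1578 tags and 3.23, 2.98 and 3.37-fold. One list thus joined what the other divided. Other long replicate 1 peaks differed in this. The one at 85157945 to 85167027, with 1989 tags and 4.05-fold, overlapped 2 peaks of replicate 2, and the one at 85075743 to 85088426, with 3448 tags and 2.65-fold, overlapped none and lay 2588 bp from the nearest. Summits of the 11 pairs were 2 to 7417 bp apart.

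Window 8a held the most peaks, 21 in replicate 1 and 35 in replicate 2, of which 20 and 28 were shared. The long replicate 1 peak at 19715682 to 19734904 covered 19223 bp with 4093 tags at 2.86-fold, and 2 peaks of replicate 2 overlapped it with 1034 and 665 tags. The longest peak of the whole replicate 2 list was also here, 14160 bp from 19951120 with 3778 tags and 2.81-fold. No replicate 1 peak lay within 28717 bp of it. The best pair of the window was better enriched, at 19751614 to 19754928 with 7.91-fold and 609 tags in replicate 1 and 5.89-fold and 638 tags in replicate 2. Joining was common: 15 of the 53 replicate 1 peaks in windows 1a, 1b and 8a overlapped at least 2 peaks of replicate 2, as did 28 of all 273 in the windows, beside 6.06% of the list. The reverse held for 9 of 311 replicate 2 peaks, beside 1.9% of that list. Among autosomal peaks outside, the counts were 14 of 1789 in replicate 1 and 2 of 1009 in replicate 2. The list shares include chromosome X. Its windows of at least 8 peaks held 122 of the 185 such peaks of replicate 1 and 36 of the 51 of replicate 2.

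Window 1b had 18 and 27 peaks with median fold of 3.57 and 3.48. Most tags in replicate 1 belonged to the peak at 87508941 to 87511800, with 730 tags and 2.96-fold. In replicate 2 they belonged to the one at 87516974 to 87519374, with 873 tags and 2.97-fold, whose partner in replicate 1 had 727 tags and 3.02-fold. The pair of best fold, at 87377721 to 87378451, had 6.24-fold and 150 tags in replicate 1 and 5.21-fold and 210 tags in replicate 2. A peak of 2208 bp with 837 tags at 87501296 was called in replicate 2 alone.

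In windows 17b and 3a nearly all peaks lay in a single short run. Window 17b had its 8 replicate 1 peaks and 9 replicate 2 peaks within 6.95 kb, from 29238590 to 29245536, and 7 of each were shared. They were short and of few tags, with medians of 375 and 297 bp and of 42.5 and 43 tags. Fold ranged between 3.59 and 8.31 for replicate 1 and between 4.46 and 7.3 for replicate 2, highest in both at 29240807 to 29241146, where the summits were 14 bp apart.

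In window 3a, 21 of the 22 peaks of replicate 1 and 22 of the 23 of replicate 2 filled 40.1 kb, from 25416311 to 25456433. Median gaps between peaks were 739 and 388 bp. Fold was low along this run, 2.66 to 4.47 in replicate 1 and 2.46 to 5.68 in replicate 2. The window's remaining pair, apart from the run at 25706449 to 25706885, had the highest fold of each list there, 7.59 with 63 tags and 6.9 with 41 tags. Only 2 of the 16 pairs in this window had the higher fold in replicate 1.

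**Figure D5:**
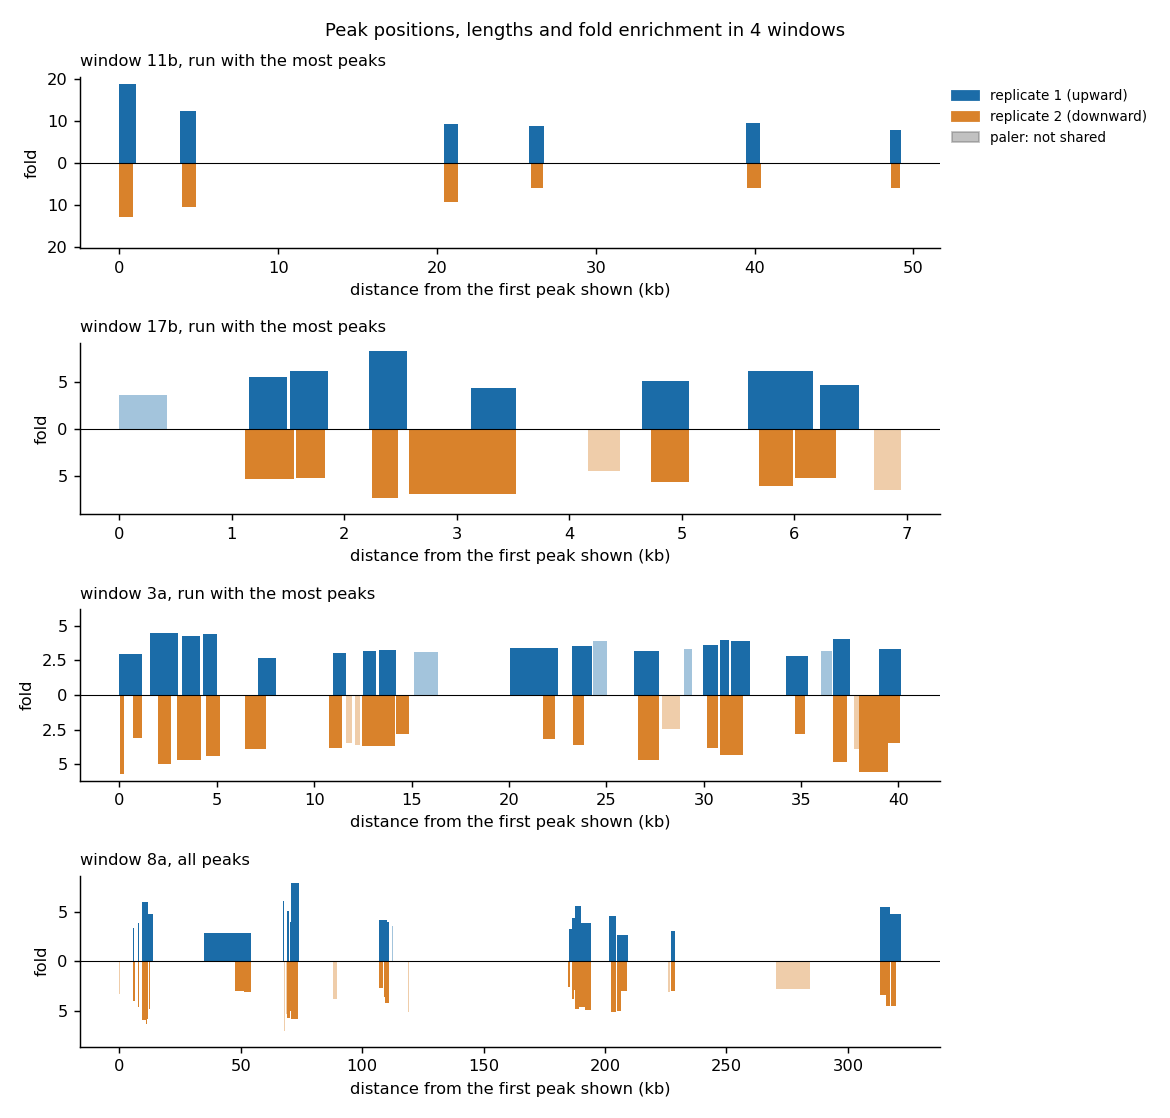
Positions of peaks in windows 11b, 17b, 3a and 8a as distance in kb from the first peak shown (horizontal axes), with bar width as peak length and bar height as fold enrichment, upward for replicate 1 and downward for replicate 2. In 11b the 6 sites of each list face each other at 7.82 to 18.8-fold in replicate 1, and in 8a single bars reach 19223 bp in replicate 1 and 14160 bp in replicate 2.

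Window 3b resembled 3a in its even, low fold. Its 16 and 20 peaks lay within 71.9 kb, from 92016540 to 92088434, with fold of 2.84 to 4.74 for replicate 1 and 2.65 to 4.76 for replicate 2. The site of most tags was the same in each, at 92033560 to 92035188 with 229 tags and 2.84-fold, and 303 tags and 2.65-fold. Rates of 100% were given to 12 of the 16 and 17 of the 20 peaks.

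Many peaks of the neighbouring windows 5a and 5b were in 1 list alone. In 5a, replicate 1 had 2 peaks (81 and 70 tags, 3.8 and 3.24-fold), replicate 2 had 8 (22 to 140 tags, 2.91 to 7.3-fold), and no peak of one list overlapped the other. The closest approach was 2531 bp. In 5b, 9 of 15 and 9 of 19 peaks were shared, and all 15 of replicate 1 had a rate of 100%. The best pair, at 15022004 to 15022368, had 6.58-fold and 49 tags in replicate 1 and 7.75-fold and 107 tags in replicate 2. Crowding continued across the border of these windows, since a run from 14996429 to 15054778 took in 6 peaks of replicate 1 and 10 of replicate 2.

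Windows 8b and 8c are adjacent, and their closely packed peaks were short. In 8c, 19 and 27 peaks had median lengths of 388 and 278 bp and median tags of 55 and 42. They formed a run of 43.4 kb from 72000422 with 8 and 11 peaks, another of 35.7 kb from 72085283 with 10 and 15, and an isolated pair at 72653796 with 5.98 and 3.93-fold. The best pair by rank, at 72085283 to 72085557, had 31 and 30 tags, 6.51 and 7.71-fold, and summits at the same base. In 8b, a run of 26.1 kb from 71949103 held 3 peaks of replicate 1 with 3.91 to 5.78-fold and 8 of replicate 2 with 4.69 to 8.11-fold.

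The remaining pair of 8b was far better enriched. At 71317248 to 71318184 it had 16.78-fold and 593 tags in replicate 1 and 11.64-fold and 499 tags in replicate 2, with summits 15 bp apart. Its p-based scores, 2481.2 and 1675.23, were the highest of all peaks in the 24 windows in each list.

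Windows 16 and 2 held unshared peaks beside shared ones. In window 16, 8 of 14 and 9 of 19 peaks were shared. Its broadest site, from 3241028 to 3245201, had 757 tags and 3.48-fold in replicate 1, and the replicate 2 peak within it had 520 tags and 4.04-fold. The narrow site at 3488195 to 3488392 had far higher fold on few tags, with 10.84 on 33 tags and 12.58 on 34 tags. In window 2 all 6 peaks of replicate 1 were shared, as were 7 of the 10 of replicate 2. A run of 3.88 kb from 3881758 there held 3 and 6 peaks, led by the site at 3883029 to 3884159 with 172 tags in each list and 7.59 and 9.74-fold.

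Across all windows, joining peaks of both lists that lay within 20 kb of each other gave 91 runs. Of these, 22 runs had 10 or more peaks and together held 391 of the 584 peaks (67.0%), and 23 runs were a single peak. Much of the crowding was thus on a smaller scale than the 1 Mb windows. A shared site counted in a run at least once for each list, so a run with shared sites held fewer sites than peaks. At the threshold of the rule, the 6 windows with exactly 8 peaks in their denser list had 42 and 37 peaks, with fold medians of 5.895 and 5.12. The 3 windows with exactly 7, on chromosomes 5, 6 and 11, had 19 and 12 peaks, with fold medians of 5.48 and 5.985.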

How the data were processed

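The authors called peaks on each ChIP library with MACS against 1 shared control file, per the file headers, at a p-value threshold of 1e-05. The version, MACS 1.4.2, and the build, mm9, are from the submitters' processing notes; which aligner was used is not given in them. Per the file headers, local background was taken over the peak and over 1000, 5000 and 10000 bp. The deposited lists give raw tag counts per peak, fold enrichment (a ratio to local background), a score of 10 times the -log10 p-value, a false discovery rate in percent, and length and summit offset. All are the caller's values for that peak in its own library. Fold of paired peaks was set side by side between the lists without rescaling. Unique tags were 80.32% and 84.33% of all tags. Positions are counted from 1.

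Windows, overlaps (at least 1 bp, checked with bedtools 2.31.1), mutual best pairs, gaps and runs were computed in Python 3.11.15 with pandas 2.3.3, and tested on simulated data. Intervals are exact (Clopper-Pearson, scipy 1.17.1). Every window was named, with the pair of best mean fold rank and the peak of most tags. Other peaks, the 3 windows of long peaks (at least 3 per list) and the grouping by list were chosen after their values were seen. The windows and measures were chosen with earlier results of these data known. Genes and motifs were not examined, for want of an mm9 reference. The input library had no file of its own in this work.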

Additional observations from a re-analysis of the deposited data

How the results depend on the processing

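In all, 34 of 56 recomputed values stayed within the spread used as a limit: 1.5 times for counts, the exact interval for shares and the summit distance, and 1 SD between the lists for medians. The 24 windows became 38 with at least 6 peaks, 13 with at least 10 and 13 when both lists had to reach 8. Counting only peaks with a p-based score of at least 100 left 9 windows with 83 and 87 peaks, since fewer peaks were counted. Choosing windows without replicate 1 or without replicate 2 gave 16 to 21 windows, 201 to 261 and 267 to 284 peaks, shares of 69.0 to 73.6% and 62.9 to 70.8%, and median folds of 4.34 to 4.66 and 4.395 to 4.42 in replicates 1 and 2. The shared percentages were 54.9 and 48.2 with an overlap of at least 50% of both peaks, 44.0 and 38.3 with summits within 100 bp, and 78.8 and 80.1 with peaks widened by 500 bp. At a score of at least 100, median fold was 5.595 and 4.815, tags 177.5 and 159.5, and length 879.5 and 719.5 bp. The median over window medians was 5.145 and 4.89, and shared peaks of replicate 1 alone had 4.98. The stricter score keeps peaks of more tags by construction, and the cause of the other shifts was not tested. The summit distance was 59 to 79 bp. No paired analysis was possible because the input, the only other group, is a single library. A peak listed once may lie just under the threshold in the other library.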
